A study of Mus musculus with 24 samples.

Results

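The drug efflux transporters described here are 7 genes of the ATP-binding cassette (ABC) family, Abcb1a, Abcb1b, Abcg2, Abcc1, Abcc4, Abcc5 and Abcc6, chosen by symbol, and all 7 were measured, each by 1 probe set, among 22180 genes with a single symbol on the array. Cells were sorted with magnetic beads for Cd144 and Cd105, surface proteins of endothelium encoded by Cdh5 and Eng, and hybridised to Affymetrix arrays, 8 from each of 3 sources in mice of mixed strain background. The adult hindbrain came from wild type mice. The Shh medulloblastomas came from mice of genotype Ptch+/-; Ink4c-/-, and the Wnt medulloblastomas from mice with Blbp-Cre and 3 floxed genes, Ctnnb1 (+/Exon3 flox) with Trp53 (flox/flox) and Pik3ca (+/flox). Cre is driven there by the promoter of Blbp, a gene of radial glia and neural progenitors. The sources used here give neither the ages of the tumour mice nor whether animals were pooled, and the Ptch and Ink4c alleles are germline ones, carried by the endothelium too.

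ABC transporters use ATP to move substrates across a membrane. In the capillaries of the brain, P-glycoprotein (Abcb1) and the breast cancer resistance protein (Abcg2) sit on the membrane facing the blood and return many lipophilic drugs to it, and several multidrug resistance proteins of the C subfamily export organic anions and drug conjugates. Rodents have a pair of genes for P-glycoprotein, Abcb1a, which is the form of brain capillaries, and Abcb1b. These pumps are part of the blood-brain barrier and limit how much of a cytotoxic drug reaches brain tissue or a tumour within it.

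In the RefSeq gene table (GRCm38.p6), Abcb1a, Abcb1b and Abcb4 are consecutive protein-coding genes on chromosome 5. RefSeq start sites with the 250 bases before and 50 bases after them were at hand for 5 of the 7 genes. The windows of 4 genes are shown because Abcb1a, Abcg2 and Abcc4 varied together in the tumours while Abcb1b, next to Abcb1a, gave correlations below 0 with them. Each is the most upstream of the gene's starts in the table, read 5′ to 3′, and capitals mark matches on either strand to any of 6 motifs: TCF/LEF (CTTTGTT or CTTTGAT), the core of the aryl hydrocarbon receptor site (GCGTG), the antioxidant response element (TGACNNNGC), the GC box (GGGCGG), an ETS site (CNGGAAGT) and the TATA box (TATAAA).
Abcb1a (chr5:8566841-8567140, plus strand): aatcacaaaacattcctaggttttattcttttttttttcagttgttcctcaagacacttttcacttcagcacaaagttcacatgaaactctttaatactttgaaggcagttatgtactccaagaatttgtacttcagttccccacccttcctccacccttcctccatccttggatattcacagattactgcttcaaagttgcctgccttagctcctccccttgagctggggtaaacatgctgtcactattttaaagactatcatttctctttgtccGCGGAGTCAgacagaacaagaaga
Abcb1b (chr5:8797897-8798196, plus strand): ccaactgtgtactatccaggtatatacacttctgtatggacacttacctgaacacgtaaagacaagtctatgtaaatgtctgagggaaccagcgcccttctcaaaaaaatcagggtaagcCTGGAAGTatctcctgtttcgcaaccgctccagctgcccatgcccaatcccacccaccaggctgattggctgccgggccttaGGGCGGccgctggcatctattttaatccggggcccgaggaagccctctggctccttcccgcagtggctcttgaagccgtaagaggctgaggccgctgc
Abcg2 (chr6:58584283-58584582, plus strand): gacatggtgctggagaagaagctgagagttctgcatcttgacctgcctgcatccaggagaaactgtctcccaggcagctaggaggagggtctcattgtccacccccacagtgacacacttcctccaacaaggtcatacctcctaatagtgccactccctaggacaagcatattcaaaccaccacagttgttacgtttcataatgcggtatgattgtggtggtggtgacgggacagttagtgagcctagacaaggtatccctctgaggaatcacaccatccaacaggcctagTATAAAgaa
Abcc4 (chr14:118706170-118706469, minus strand): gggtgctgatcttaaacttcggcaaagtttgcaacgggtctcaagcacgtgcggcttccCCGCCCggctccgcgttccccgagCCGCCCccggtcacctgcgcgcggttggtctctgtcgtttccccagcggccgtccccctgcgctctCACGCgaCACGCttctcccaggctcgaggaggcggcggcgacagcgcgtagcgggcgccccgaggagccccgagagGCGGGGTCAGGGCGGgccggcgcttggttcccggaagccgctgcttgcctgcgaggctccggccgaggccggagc
The Abcb1a window had a GC content of 40.3% with 1 match, to the antioxidant response element, and that of Abcb1b a GC content of 55% with 1 GC box and 1 ETS match. The Abcc4 window was the most GC-rich of the 4 at 72.7% and held 3 GC boxes, 2 aryl hydrocarbon receptor cores and 1 antioxidant response element. The upstream Abcg2 window, at 50% GC, held 1 TATA box match, at position 42 counted from the start and so downstream of it. The second Abcg2 start, at 48% GC, held 2 GC boxes, 1 ETS match and 1 TATA box match, at position 2. The most downstream Abcg2 start, at 67% GC, held 4 GC boxes and 1 aryl hydrocarbon receptor core. The single TCF/LEF match of the 8 windows lay at the second start of Abcc4, and the Abcc5 window held no match. Among all 32851 windows of this length in the table, 35.7% held a GC box, 32.4% an aryl hydrocarbon receptor core, 13.6% a TATA box, 12.4% an antioxidant response element, 9.5% an ETS match and 9.3% a TCF/LEF match. These are matches of letters; which start was used in these cells was not measured.

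The levels below are deposited log2 values, so that a difference of 1 is a factor of 2, and they are compared between groups for 1 gene and not between genes. Array medians lay between 5.96 and 6.18, and the non-mouse ERCC control sequences on the array set a limit for dim genes, the 95th percentile of their means, at 5.24. Transcripts of endothelium were bright in all groups: the mean of 16 endothelial markers was at least 11.49 on each hindbrain array and 11.41 on each Shh array, while the Wnt arrays lay between 9.99 and 11.22, with replicates 8 and 1 lowest. In Wnt against hindbrain 15 of these markers fell, with a median log2 fold change of -0.89, and in Shh against hindbrain 2 fell and 1 rose, with a median of -0.060. Markers of other cells were present too, with 7 of 11 pericyte and 12 of 14 microglia and macrophage markers lower in Wnt than in hindbrain arrays, and 7 of 10 fibroblast markers higher. Of 7 choroid plexus and ependyma markers, 3 rose and 3 fell in Wnt against hindbrain. Their mean was 8.16 to 8.41 on Wnt, 6.48 to 7.88 on Shh and 6.31 to 9.14 on hindbrain arrays. In Shh against hindbrain, 9 of 10 markers of granule neuron precursors rose (median 1.67), with a mean of at least 7.49 on Shh arrays and at most 6.80 on hindbrain and 6.96 on Wnt arrays, and 9 of 10 were lower in Wnt than in Shh. Of the smooth muscle markers, 5 of 6 fell in Shh against hindbrain (median -1.57), with a mean of at most 8.37 on Shh arrays and at least 9.09 on hindbrain arrays. In Shh arrays 10 of 14 microglia and macrophage markers fell and 7 of 10 fibroblast markers rose. Of 10 astrocyte markers, 5 rose and 1 fell in Shh against hindbrain. The part of all these other cells in the Shh and Wnt changes of the transporters was not tested. Fewer cells of a type and less RNA per cell cannot be told apart in such sorted bulk samples.

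In Wnt tumour endothelium, 6 of the 7 transporters fell and Abcc1 rose. Over all genes tested, 22% were called lower and 23.2% higher in this comparison, 45.3% in all (limma, Benjamini-Hochberg adjusted p under 0.05). In Shh tumour endothelium 4 fell, Abcb1a, Abcb1b, Abcc4 and Abcc5, against 18.9% of all genes, 1 rose, again Abcc1, against 18.9%, and Abcg2 and Abcc6 did not pass the test; 37.8% of all genes were called in either direction. Between the tumours, Abcb1a, Abcg2, Abcc4 and Abcc6 were lower in Wnt than in Shh arrays, against 17.8% of all genes, Abcc1 was higher, against 18%, and Abcb1b and Abcc5 did not pass the test, where 35.8% of all genes were called in either direction. A fall of at least 2-fold was called in Wnt against hindbrain for 5 members, Abcb1a, Abcb1b, Abcg2, Abcc4 and Abcc6, and for 5.29% of all genes, and in Shh against hindbrain for Abcb1b, and for 2.86%. Between the tumours it was called for 4 members, Abcb1a, Abcg2, Abcc4 and Abcc6, and for 3.49% of all genes. No member rose 2-fold in either tumour, as 6.79% of all genes did in Wnt and 4.14% in Shh arrays. The median log2 fold change of the 7 was -1.65 in Wnt and -0.38 in Shh against hindbrain and -1.19 between the tumours, where the medians over all genes were -0.023, -0.020 and -0.0019. The Wnt and Shh comparisons share the hindbrain arrays.

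**Figure D1:**
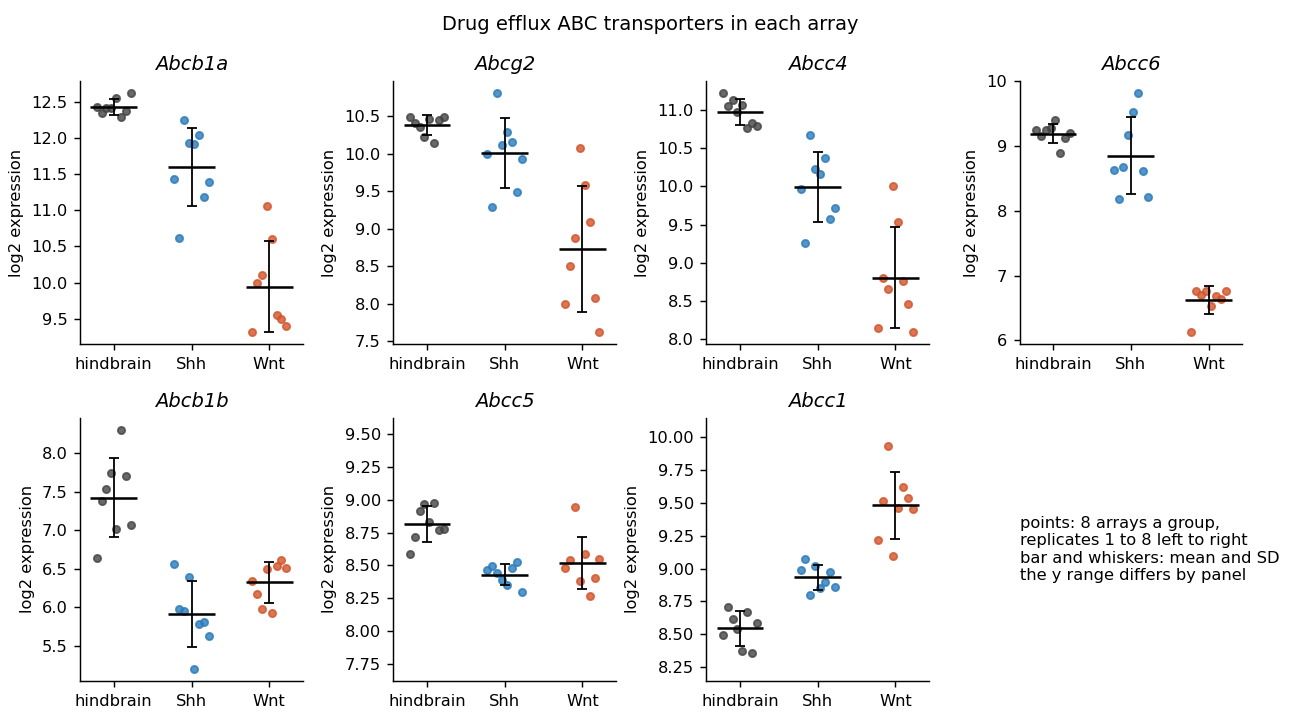
Level of each transporter in every array (log2 expression, 8 arrays a group, bars and whiskers for mean and SD, y range set per panel). Abcb1a and Abcc4 step down from hindbrain to Shh to Wnt with a wide spread in the tumours, Abcg2 is lower in Wnt arrays and overlaps hindbrain in Shh arrays, Abcc6 is low in Wnt arrays alone (6.13 to 6.76), Abcb1b is lower in both tumours and Abcc1 rises from hindbrain to Wnt.

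Abcb1a, the P-glycoprotein gene of brain capillaries, lay between 12.29 and 12.63 in hindbrain (median 12.42), between 10.62 and 12.25 in Shh (median 11.67) and between 9.31 and 11.07 in Wnt arrays (median 9.78). Every tumour array was below every hindbrain array. The groups of the 2 tumours overlapped, through Shh replicate 2, the lowest Shh array, and Wnt replicate 4, the highest Wnt array. The signal in Wnt arrays was 17.8% of that in hindbrain, a log2 fold change of -2.49 (95% confidence interval -2.96 to -2.02, limma adjusted p = 1.80e-09). In Shh arrays it was 56% (-0.84, interval -1.31 to -0.37, adjusted p = 0.005), and Wnt was below Shh by a further 3.15-fold (-1.65, interval -2.12 to -1.19, adjusted p = 2.35e-06). With the endothelial marker mean as a covariate, the Wnt difference from hindbrain was -1.21 (adjusted p = 0.00132), and that from Shh was -0.48 and no longer called (adjusted p = 0.198). Array-to-array spread grew as well, with a standard deviation of 0.11 for the hindbrain arrays, 0.54 for the Shh arrays and 0.63 for the Wnt arrays (n = 8 each).

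Abcg2, whose protein works as a dimer on the blood side of the capillary, ran from 10.14 to 10.50 in hindbrain (median 10.43), from 9.30 to 10.81 in Shh (median 10.06) and from 7.62 to 10.08 in Wnt arrays (median 8.69). The Wnt and hindbrain arrays did not overlap, while Shh replicate 3 was above every hindbrain array and 5 Shh arrays were below every one. Wnt arrays were 3.14-fold lower than hindbrain (-1.65, interval -2.19 to -1.11, adjusted p = 1.01e-05) and 2.43-fold lower than Shh (-1.28, interval -1.82 to -0.74, adjusted p = 0.000369). The difference between Shh and hindbrain was -0.37 with an interval from -0.91 to 0.17 (adjusted p = 0.283), which holds both 0 and a fall of nearly 2-fold. Abcg2 followed the endothelial markers most closely of the 7 genes: over the 24 arrays, each taken as its deviation from its group mean, the correlation with the mean of the 16 markers was 0.91, against 0.79 for Abcb1a and 0.84 for Abcc4, both values of a point coming from the same array. With the microglia and macrophage marker mean the 3 genes gave -0.52, -0.55 and -0.48. With the endothelial marker mean as a covariate, the Abcg2 difference became 0.065 in Wnt against hindbrain (adjusted p = 0.885) and 0.29 in Wnt against Shh (adjusted p = 0.342), both no longer called.

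Abcc4, the multidrug resistance protein that exports cyclic nucleotides and nucleotide analogues, lay between 10.76 and 11.22 in hindbrain (median 11.01), between 9.26 and 10.67 in Shh (median 10.06) and between 8.09 and 10.002 in Wnt arrays (median 8.71). Hindbrain was separate from both tumours, and the tumours overlapped in the range of Wnt replicates 4 and 5. It fell 4.49-fold in Wnt (-2.17, interval -2.63 to -1.71, adjusted p = 1.31e-08) and 1.97-fold in Shh arrays (-0.98, interval -1.44 to -0.52, adjusted p = 0.0011). The difference between the tumours was -1.19 (interval -1.65 to -0.73, adjusted p = 0.00014). With the endothelial marker mean as a covariate, Abcc4 was still lower in Wnt than in hindbrain (-0.82, adjusted p = 0.0102) and in Shh than in hindbrain (-0.87, adjusted p = 7.79e-06), while the difference between the tumours was 0.050 (adjusted p = 0.906).

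Abcc6, a C-subfamily protein through which cells release ATP and whose loss in people causes pseudoxanthoma elasticum, had a pattern of its own. It ran from 8.89 to 9.40 in hindbrain (median 9.22), from 8.18 to 9.82 in Shh (median 8.65) and from 6.13 to 6.76 in Wnt arrays (median 6.69). All Wnt arrays lay below all others, by a gap of more than 1 log2 unit, and close together. The Wnt arrays were 5.94-fold lower than hindbrain (-2.57, interval -2.94 to -2.20, adjusted p = 1.35e-11) and 4.7-fold lower than Shh (-2.23, interval -2.60 to -1.87, adjusted p = 3.42e-10). In Shh against hindbrain it gave -0.34 (interval -0.70 to 0.029, adjusted p = 0.141), with Shh replicates 5 and 6 above every hindbrain array and 5 Shh arrays below every one. Without Shh replicate 6, the highest, the difference passed the test (-0.48, adjusted p = 0.0163). The Wnt differences from hindbrain and from Shh were -2.08 and -1.78 with the endothelial marker mean as a covariate (limma adjusted p = 1.55e-05 and 9.48e-05).

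Abcb1b, the other P-glycoprotein gene, lay between 6.65 and 8.31 in hindbrain (median 7.46), between 5.20 and 6.57 in Shh (median 5.88) and between 5.93 and 6.62 in Wnt arrays (median 6.42). It was the transporter with the widest hindbrain spread (SD 0.52), and the hindbrain arrays were above all tumour arrays, replicate 1 by little. It fell 2.85-fold in Shh (-1.51, interval -1.92 to -1.11, adjusted p = 1.32e-06) and 2.14-fold in Wnt arrays (-1.10, interval -1.51 to -0.69, adjusted p = 4.66e-05). Levels in Shh were near the control range, with 7 of 8 arrays above the 95th percentile of the ERCC controls, so the size of that fall is uncertain. Wnt was above Shh by 0.41 (interval 0.0072 to 0.82, adjusted p = 0.108), a difference that passed the test without Shh replicate 1 (0.51, adjusted p = 0.0443). Abcb1b stayed lower in Wnt than in hindbrain arrays with the endothelial marker mean as a covariate (-1.51, limma adjusted p = 0.00216). The tumours differed by 0.038 in that fit (adjusted p = 0.956).

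The 5 genes whose deviations from the group means were most like it over the 24 arrays were Myo1g (r = 0.87), Rel (0.87), Runx1 (0.86), Ptger4 (0.84) and Gpr35 (0.84). Rel and Runx1 are transcription factors of blood cell lineages and Myo1g a myosin of leukocytes. Its correlation with the endothelial marker mean was -0.29. With the microglia and macrophage marker mean it was 0.58, and with the choroid plexus and ependyma marker mean -0.62. Hindbrain replicates 1, 5 and 8, the lowest in Abcb1b, had choroid plexus and ependyma means of 8.72, 7.83 and 9.14. The other hindbrain arrays lay between 6.31 and 6.73. The part of choroid plexus and ependymal cells was not tested. In hindbrain, Abcb1b and the mean of 14 microglia and macrophage markers gave r = 0.89 and rho = 0.81 (n = 8, exact permutation p = 0.00342 and 0.0218, adjusted over 12 relations p = 0.00587 and 0.0327), and r = 0.69 without the 2 arrays farthest from the median. In Shh arrays r was 0.66 and rho 0.81 (exact permutation p = 0.0698 and 0.0218, adjusted p = 0.105 and 0.0327), and 0.54 without the 2 farthest. In Wnt arrays r was 0.46 and rho 0.33 (exact permutation p = 0.251 and 0.428, adjusted p = 0.301 and 0.428), and 0.29 without the 2 farthest. That marker mean lay between 10.04 and 10.89 on hindbrain arrays, between 7.80 and 10.14 on Shh arrays and between 7.44 and 9.22 on Wnt arrays, and 10 of the 14 markers fell in Shh and 12 in Wnt arrays, with none of them under the ERCC limit in any group. Abcb1b and these markers fell in the same comparisons, and the part of such cells in the result was not tested. This relation was examined after its genes had been seen.

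Abcc1, which exports glutathione and glucuronide conjugates, was the single member to rise. It lay between 8.36 and 8.71 in hindbrain (median 8.57), between 8.80 and 9.07 in Shh (median 8.93) and between 9.10 and 9.93 in Wnt arrays (median 9.49). The 3 groups did not overlap, in that order. It was 1.91-fold higher in Wnt (0.93, interval 0.75 to 1.12, adjusted p = 3.10e-09) and 1.31-fold higher in Shh arrays (0.39, interval 0.21 to 0.57, adjusted p = 0.00108) than in hindbrain, and 1.46-fold higher in Wnt than in Shh (0.55, interval 0.37 to 0.73, adjusted p = 2.12e-05). Fibroblast markers, 7 of 10 of which rose in each tumour, had a mean of at most 8.33 on hindbrain arrays, at least 8.78 on Shh and at least 8.47 on Wnt arrays, and their part in the rise was not tested. Within groups Abcc1 gave a correlation of -0.41 with that fibroblast mean over the 24 arrays. Its Wnt differences from hindbrain and from Shh were 0.88 and 0.50 with the endothelial marker mean as a covariate (limma adjusted p = 0.000222 and 0.0237).

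Abcc5, which exports cyclic nucleotides and other organic anions, changed least in Wnt against hindbrain and between the tumours, though not in Shh against hindbrain. It lay between 8.59 and 8.98 in hindbrain (median 8.80), between 8.30 and 8.53 in Shh (median 8.45) and between 8.27 and 8.94 in Wnt arrays (median 8.51). The Shh arrays were all below hindbrain, while Wnt replicate 3 stood within the hindbrain range and the other 7 Wnt arrays lay below it. It fell by 0.38 in Shh (interval -0.54 to -0.22, adjusted p = 0.00032) and by 0.30 in Wnt (interval -0.46 to -0.14, adjusted p = 0.00245), and the tumours differed by 0.087 (interval -0.072 to 0.25, adjusted p = 0.415). With the endothelial marker mean as a covariate the Wnt difference was -0.37 and missed the threshold (adjusted p = 0.0643). Its deviations gave a correlation of -0.70 with the fibroblast marker mean over the 24 arrays, and the part of such cells in its fall was not tested.

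Groups that did not overlap at all were found for Abcb1a, Abcb1b, Abcg2, Abcc4 and Abcc6 as lower in Wnt than in hindbrain, against 9.42% of all genes, and for Abcc1 as higher, against 10.6%. In Shh against hindbrain they were Abcb1a, Abcb1b, Abcc4 and Abcc5 as lower, against 5.55% of all genes, and Abcc1 as higher, against 7.13%. Between the tumours they were Abcc6 as lower in Wnt, against 4.32%, and Abcc1 as higher, against 5.8%.

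Because endothelial transcripts were lower in the Wnt arrays, each transporter was also expressed relative to Cdh5, the VE-cadherin gene of endothelial junctions, and Pecam1, a surface gene of all endothelium. The mean of both lay between 11.85 and 12.18 on the hindbrain arrays. It ran between 11.81 and 12.12 on the Shh arrays and between 10.69 and 11.83 on the Wnt arrays. In Wnt arrays Cdh5 fell by 0.41 (adjusted p = 0.00293) and Pecam1 fell by 0.87 (adjusted p = 2.79e-05), and in Shh arrays they gave 0.069 and -0.10 and did not pass the test (adjusted p = 0.658 and 0.624). Subtracting this reference moved the median of all genes to 0.62 in both comparisons of the Wnt arrays and to -0.0017 in Shh against hindbrain. Of the genes called in the relative fit, 94.1% were higher in Wnt than in hindbrain and 96.2% higher in Wnt than in Shh, against 51.3% and 50.3% of those called from the deposited values.

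Relative to the reference, Abcb1a, Abcg2, Abcc4 and Abcc6 were still lower in Wnt than in hindbrain arrays, as were 5.03% of all genes, and Abcc1 was higher, as were 80%. Abcb1a gave -1.85 (interval -2.22 to -1.48, adjusted p = 9.21e-10) and Abcc6 -1.93 (interval -2.32 to -1.54, adjusted p = 1.10e-09). Abcc4 gave -1.52 (interval -1.87 to -1.18, adjusted p = 7.87e-09) and Abcg2 -1.01 (interval -1.38 to -0.64, adjusted p = 1.98e-05). These 4 pumps thus fell by more than the reference did, as did many endothelial genes. Of the 16 endothelial markers, which include both reference genes, 9 were lower and 3 higher in this relative comparison. The relative rise of Abcc1 was 1.58 (interval 1.24 to 1.91, adjusted p = 3.09e-09), above the 0.62 of the median gene. Abcb1b, at -0.46 (interval -0.96 to 0.045, adjusted p = 0.0832), and Abcc5, at 0.35 (interval 0.0016 to 0.69, adjusted p = 0.0572), did not pass the test, and the sign of Abcc5 was turned. With Cdh5 alone as the reference Abcb1b was called (-0.69, adjusted p = 0.0168), as it was without Wnt replicates 1 and 8 (-0.68, adjusted p = 0.0197). With Pecam1 alone Abcc5 was called as higher (0.58, adjusted p = 0.00675), as it was with all 16 markers (0.67, adjusted p = 0.000652). With these references the median of all genes was 0.85 and 0.95, so Abcc5 stayed below the median gene in both.

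In Shh against hindbrain the reference changed little, and Abcb1b (-1.49, adjusted p = 3.12e-05), Abcc4 (-0.96, adjusted p = 6.35e-05) and Abcb1a (-0.82, adjusted p = 0.0012) were lower relative to it, as were 8.33% of all genes, and no member was called higher by limma, as were 9.92%, with 1, Abcc1, at an unadjusted p under 0.05 (0.0196). Abcc1 (0.41, adjusted p = 0.0903), Abcc5 (-0.37, adjusted p = 0.147), Abcg2 (-0.35, adjusted p = 0.202) and Abcc6 (-0.32, adjusted p = 0.296) did not pass. Without Wnt replicates 1 and 8 Abcc1 was called with the same 0.41 (adjusted p = 0.0376). Between the tumours all 7 passed relative to the reference: Abcc6 (-1.61), Abcb1a (-1.03), Abcg2 (-0.66) and Abcc4 (-0.56) were lower in Wnt, against 3.17% of all genes. Abcc1 (1.17), Abcb1b (1.04) and Abcc5 (0.71) were higher, against 80%. Of the 16 endothelial markers, 10 were lower and 1 higher in Wnt than in Shh arrays relative to the reference. The Abcc4 difference, with adjusted p = 0.0034, was no longer called with all 16 markers as the reference (-0.30, adjusted p = 0.0674).

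**Figure D2:**
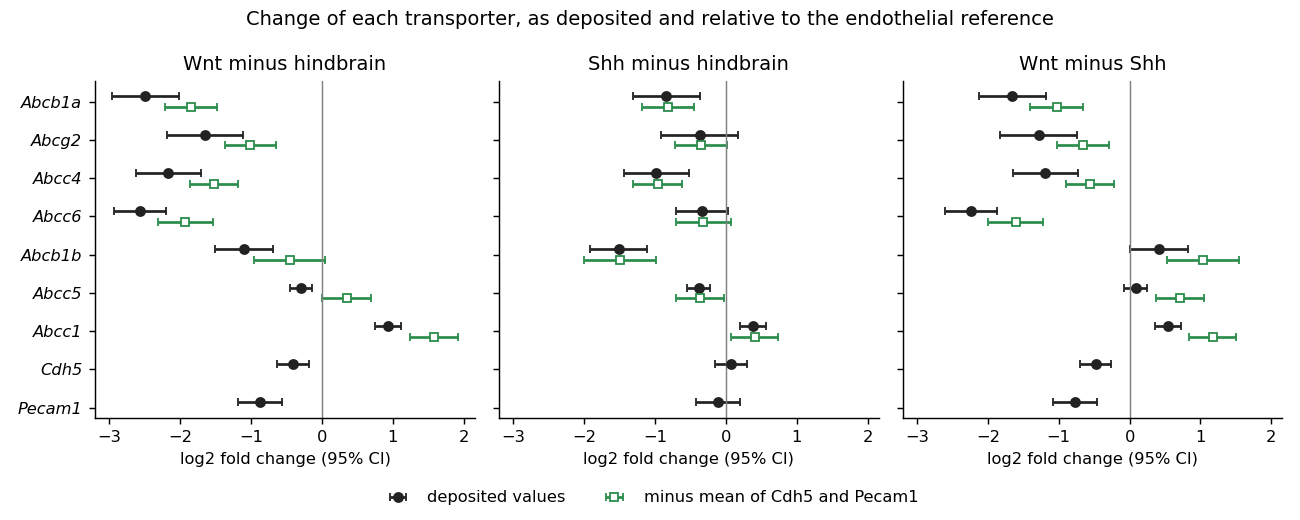
Log2 fold change of each transporter with its 95% confidence interval in the 3 comparisons, from the deposited values (filled circles) and after subtracting the mean of Cdh5 and Pecam1 (open squares), with both reference genes at the bottom. In the Wnt comparisons the squares lie 0.64 and 0.62 to the right of the circles, and Abcb1a, Abcg2, Abcc4 and Abcc6 stay below 0 with their intervals.

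In the deposited values, the P-glycoprotein genes changed by unequal amounts in the comparisons of the Wnt arrays. Within an array, the log2 signal of Abcb1a minus that of Abcb1b averaged 5.01 ± 0.59 for hindbrain, 5.68 ± 0.72 for Shh and 3.62 ± 0.77 for Wnt (SD, n = 8). It was smaller in Wnt than in hindbrain by 1.39 (two-sided exact permutation p = 0.00218, adjusted over 6 comparisons p = 0.00326) and smaller in Wnt than in Shh by 2.07 (exact permutation p = 0.000311, adjusted p = 0.000622). Shh exceeded hindbrain by 0.68 without passing the test (exact permutation p = 0.0648, adjusted p = 0.0648), and it passed before adjustment without hindbrain replicate 1 (0.79), Shh replicate 1 (0.79) or Shh replicate 2 (0.82). With the endothelial marker mean as a covariate the order was the other one in Wnt against hindbrain, -1.21 for Abcb1a and -1.51 for Abcb1b. Abcb1b was also near the control range in Shh arrays, as given above. How far the probe sets of these closely related genes read each other's transcript was not tested. Their deviations from the group means gave a correlation of -0.21 over the 24 arrays.

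Abcb1a also fell by more than Abcg2 in both tumours. Abcb1a minus Abcg2 averaged 2.05 ± 0.11 for hindbrain, 1.58 ± 0.20 for Shh and 1.21 ± 0.40 for Wnt. It was lower by 0.84 in Wnt and by 0.47 in Shh than in hindbrain, each with an exact permutation p = 0.000155 (adjusted p = 0.000466), the smallest that the test can give with these groups. The tumours differed by -0.37 (exact permutation p = 0.027, adjusted p = 0.0324), and the unadjusted p missed the threshold without Shh replicate 4 (-0.34), Shh replicate 6 (-0.33) or Wnt replicate 6 (-0.27).

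Abcb1a, Abcg2 and Abcc4 rose and fell together from array to array within each tumour. Of all pairs of the transporters, theirs had the highest correlations of deviations from the group means over the same 24 arrays. Abcb1a with Abcc4 gave 0.93, Abcg2 with Abcc4 0.93 and Abcb1a with Abcg2 0.88, while the next pair, Abcb1a with Abcc6, gave 0.51. The adjustment over 12 relations does not cover a choice among all pairs, so the p-values of these pairs can be too small. Among Shh arrays, Abcb1a and Abcc4 gave r = 0.98 and rho = 1 (n = 8, exact permutation p = 2.48e-05 and 4.96e-05, from all 40320 orders of 8 arrays, the first being the smallest possible, adjusted over 12 relations p = 0.000298 and 0.000595). Among Wnt arrays they gave r = 0.96 and rho = 0.90 (exact permutation p = 0.000471 and 0.00456, adjusted p = 0.00113 and 0.00913). Replicate 3 was the highest and replicate 2 the lowest Shh array for Abcb1a, Abcg2 and Abcc4 alike, and Wnt replicate 4 was the highest Wnt array for all 3. Abcg2 and Abcc4 gave r = 0.95 in both tumours and rho = 0.93 in both (exact permutation p = 0.000273 and 0.00223, adjusted p = 0.000893 and 0.0067 in each). Abcb1a and Abcg2 gave r = 0.93 and rho = 0.93 in Shh (exact permutation p = 0.000298 and 0.00223, adjusted p = 0.000893 and 0.0067) and r = 0.89 and rho = 0.90 in Wnt arrays (exact permutation p = 0.00263 and 0.00456, adjusted p = 0.00526 and 0.00913).

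Without the 2 arrays farthest from the median, r was 0.97, 0.86 and 0.86 in Shh and 0.75, 0.90 and 0.62 in Wnt arrays for Abcb1a with Abcc4, Abcg2 with Abcc4 and Abcb1a with Abcg2. Taken relative to Cdh5 and Pecam1, the same pairs gave r = 0.97, 0.93 and 0.89 in Shh and 0.90, 0.81 and 0.66 in Wnt arrays. In hindbrain, where each of these genes spanned under 0.5 log2 units, r was 0.022, 0.35 and 0.61 and rho 0.36, 0.40 and 0.74 (exact permutation p = 0.958, 0.39 and 0.0936 for r and 0.389, 0.327 and 0.0458 for rho, adjusted p from 0.0611 to 0.958), and without the 2 farthest arrays r was 0.27, -0.27 and 0.18. The endothelial marker mean of an array moved with all 3 pumps, as given above for Abcg2, and its part in their common variation beyond the relative values was not tested. Among Shh arrays the mean of the granule neuron precursor markers was lowest on replicate 3 (7.49). It was 9.11 on replicate 2 and highest on replicate 7 (9.25). Over the 24 arrays its deviations gave -0.35 with Abcb1a, -0.22 with Abcg2 and -0.24 with Abcc4. The part of these cells in the common variation was not tested either.

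**Figure D3:**
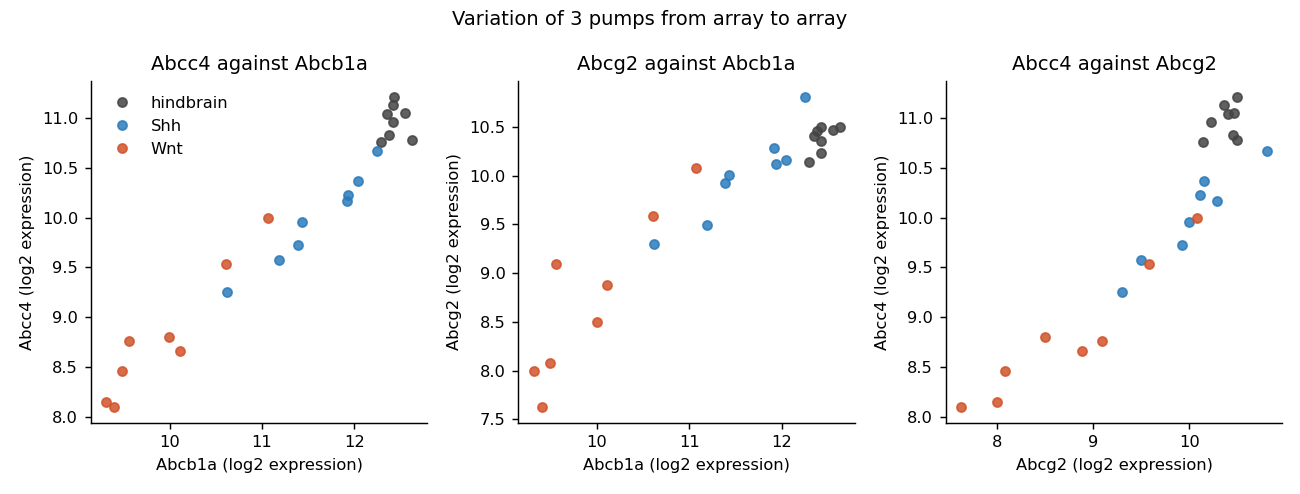
Each point is 1 array, with the log2 expression of Abcc4 against Abcb1a, Abcg2 against Abcb1a and Abcc4 against Abcg2, coloured by group. The Shh and the Wnt arrays each spread along a line (r = 0.98 and 0.96 for Abcb1a with Abcc4), while the hindbrain arrays form a tight cloud at the top.

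The genes whose deviations were most like those of these pumps over the 24 arrays included each other and genes of vessels. For Abcb1a they were Abcc4 (r = 0.93), Pkp4 (0.93), Dnm3 (0.93), Aqp11 (0.92) and Rapgef2 (0.92). For Abcg2 they were Paqr5 (0.96), Adgrf5 (0.95), Ptprb (0.94), St3gal6 (0.94) and Crybg3 (0.93), of which Ptprb, a receptor phosphatase of endothelium, is in the endothelial marker list. For Abcc4 they were Paqr5 (0.96), Ptprb (0.94), Tsc22d1 (0.94), Adgrf5 (0.93) and Abcb1a (0.93). The best matches of Abcc6 were Fgfbp1 (0.84), Frmd5 (0.82) and Ddc (0.81), those of Abcc1 were Spock1 (0.79), Ntsr1 (0.79) and Tbc1d9 (0.76), and those of Abcc5 were Ascc2 (0.82), Cacna1a (0.80) and Atxn2 (0.79). Abcc6 gave 0.51 with Abcb1a and 0.28 with Abcg2, and Abcc1 gave -0.31 and -0.26 with them. All values of an array share its hybridisation, and these correlations are descriptions.

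The rest of the ABC family did not move in 1 direction. Of 43 measured ABC genes outside the 7, in Wnt against hindbrain 16 rose and 9 fell, with 18 not called (median 0.062), and in Shh against hindbrain 11 rose and 5 fell, with 27 not called (median -0.041). After quantile normalization, 9 rose and 8 fell in Shh arrays. Relative to Cdh5 and Pecam1, 35 of the 43 were higher and 5 lower in Wnt arrays, where the median gene also shifted by 0.62. In that fit 80% of all genes were called higher and 5.03% lower. Among 7 further drug and bile pumps, 2 fell in Wnt and 1 in Shh arrays, while relative to Cdh5 and Pecam1 5 were higher and 1 lower in Wnt arrays. Abcb4, the phosphatidylcholine transporter next to Abcb1b on the chromosome, fell in both (-1.32 ± 0.10, adjusted p = 7.75e-11, and -1.20 ± 0.10, adjusted p = 1.48e-09; standard error), so that all 3 genes of this cluster fell in both tumours, and its tumour means of 5.43 and 5.54 were near the ERCC limit. Whether its probe set reads transcripts of its neighbours was not tested. Abcc3, an exporter of glucuronides, fell in Wnt arrays (-1.08 ± 0.35, adjusted p = 0.0146), but not relative to the reference (-0.44, adjusted p = 0.266).

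Among 20 lipid and sterol transporters, 10 rose and 2 fell in Wnt and 5 rose and 2 fell in Shh arrays. Relative to the reference 17 were higher and 2 lower in Wnt arrays, where 80% and 5.03% of all genes were. The cholesterol exporters Abca1 and Abcg1 rose in both, by 0.90 ± 0.10 and 1.18 ± 0.11 in Wnt and by 1.83 ± 0.10 and 2.34 ± 0.11 in Shh arrays. The sterol transporter subunits Abcg5 (2.55 ± 0.19) and Abcg8 (2.12 ± 0.23) rose in Wnt arrays and gave -0.041 and -0.11 in Shh arrays. Abca9 fell in both (-1.73 ± 0.20 and -1.72 ± 0.20). Of 9 organelle and peptide transporters 3 rose and 4 fell in Wnt arrays, with the antigen peptide transporters Tap1 (-1.15 ± 0.17) and Tap2 (-1.05 ± 0.11) among the fallers, and 2 rose and 2 fell in Shh arrays. Relative to the reference, 6 of the 9 were higher and 2 lower in Wnt arrays. Of 4 non-transport ABC proteins, which act in translation, 2 rose and 1 fell in Wnt and 3 rose in Shh arrays. Of 3 channel-type members, Abcc8, a potassium channel subunit, rose in both (1.41 ± 0.21 and 0.69 ± 0.21), and Abcc9, the subunit found in pericytes, gave -0.17 and 0.15 without passing the test.

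**Figure D4:**
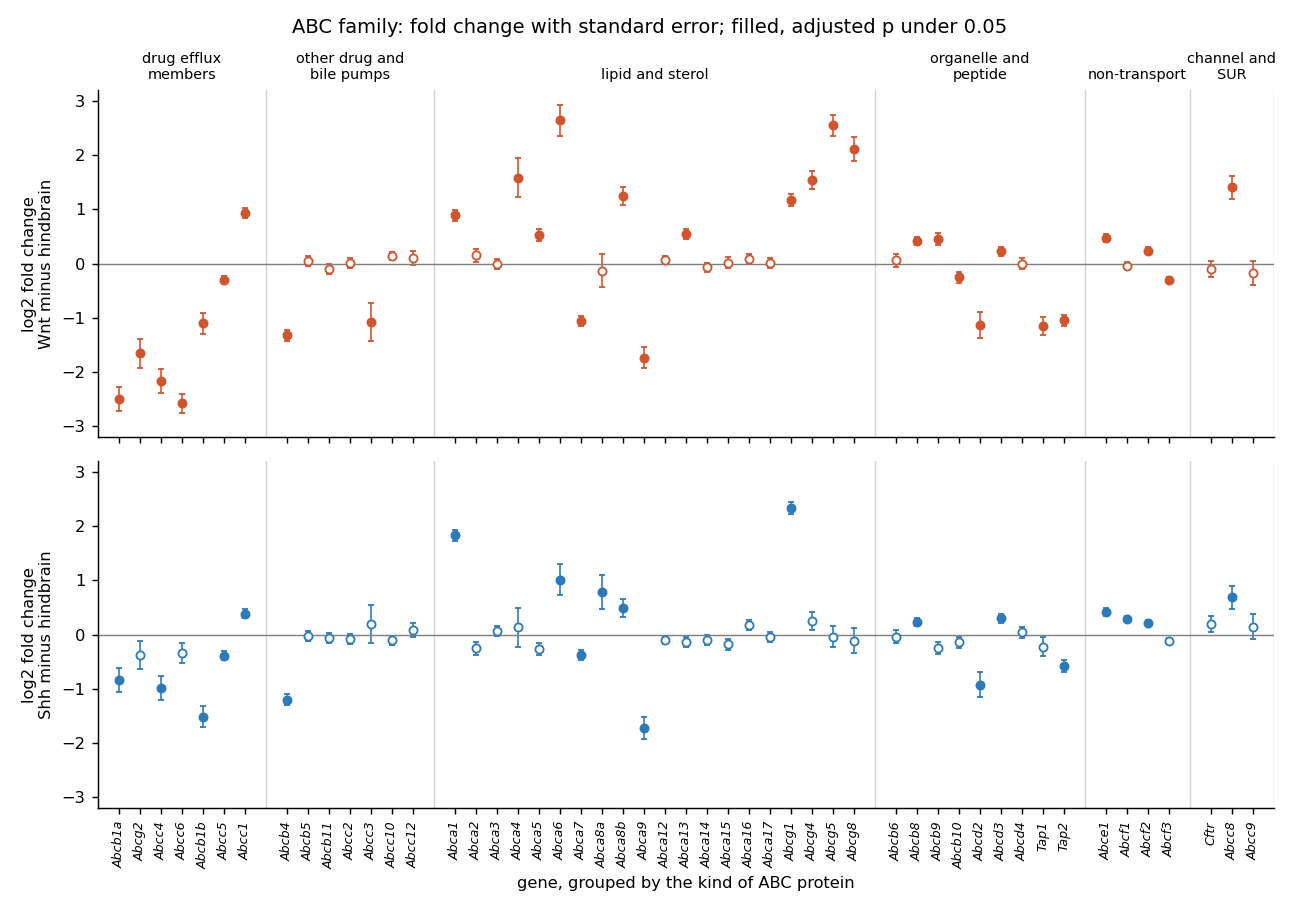
Log2 fold change with standard error of the 7 drug efflux genes and 43 other ABC genes in Wnt (top) and Shh (bottom) against hindbrain, grouped by kind, filled where the adjusted p was under 0.05. The efflux genes lie mostly below 0 (median -1.65 and -0.38), while the lipid and sterol group has a median of 0.34 in Wnt and -0.041 in Shh arrays.

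Genes that regulate, anchor or feed the pumps were counted from lists made by function. Of 16 regulators of pump genes, most of them transcription factors, 4 rose and 7 fell in Wnt and 2 rose and 4 fell in Shh arrays. Relative to Cdh5 and Pecam1, 12 were higher and 2 lower in Wnt arrays. In that fit 80% of all genes were called higher and 5.03% lower. The aryl hydrocarbon receptor Ahr rose in Wnt arrays (1.93 ± 0.20, adjusted p = 1.14e-08) and gave 0.076 in Shh arrays (adjusted p = 0.796). The glucocorticoid receptor Nr3c1 fell in both (-1.08 ± 0.070 and -0.67 ± 0.070), and Ppard fell in Wnt (-1.13 ± 0.11) and rose in Shh arrays (0.40 ± 0.11). Nr1i2 and Nr1i3, the xenobiotic receptors that induce P-glycoprotein, had group means of 4.36 to 4.53 and 5.15 to 5.30, close to the ERCC limit or under it. Both were still among the genes called higher in Wnt arrays relative to the reference (0.61 and 0.62). Of 7 scaffold and caveolar proteins 6 fell in Wnt arrays, and 5 fell and 1 rose in Shh arrays, and relative to the reference 4 were lower and 2 higher in Wnt arrays. Slc9a3r2, an adaptor that binds membrane transporters, gave -1.41 ± 0.18 and -0.74 ± 0.18 and Cav2 -1.48 ± 0.11 and -1.03 ± 0.11.

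Of 9 solute carriers that move drugs and other organic compounds, 6 fell and 3 rose in Wnt, and 1 fell and 1 rose in Shh arrays. Relative to the reference 4 were lower and 3 higher in Wnt arrays. Slc22a8 (-4.89 ± 0.30) and Slco1c1 (-4.05 ± 0.41), which move organic anions and thyroid hormone at the barrier, fell in Wnt arrays, and the nucleoside transporter Slc29a1 rose in both tumours (0.95 ± 0.13 and 1.47 ± 0.13). Of 13 enzymes of conjugation and drug metabolism, 6 rose and 2 fell in Wnt and 3 rose and 3 fell in Shh arrays. Relative to the reference 10 were higher in Wnt arrays, as were 80% of all genes. Gstt1 (2.57 ± 0.15) and Nqo1 (1.53 ± 0.15) rose in Wnt arrays and gave 0.022 and -0.079 in Shh arrays, Cyp1b1 rose in both (1.64 ± 0.30 and 1.97 ± 0.30), and the epoxide hydrolase Ephx1 fell in both (-0.58 ± 0.16 and -1.30 ± 0.16), in Wnt arrays not relative to the reference (0.058, adjusted p = 0.817).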

How the data were processed

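The deposited table held 1 log2 value per probe set and array for 41345 probe sets and 24 arrays. Per the labels, biotinylated cRNA was hybridised to Affymetrix arrays, and the submitters' processing notes name Partek 6.6 without its role; the sources used here do not give the summarisation, normalization or genome build. The values were used as the authors deposited them. Probe sets with exactly 1 symbol in the platform annotation (23521) were kept, the brightest per gene. Group means were modelled over all 24 arrays (limma 3.58.1 under R 4.3.3, lmFit and eBayes), two-sided, with Benjamini-Hochberg adjustment over 22180 genes and a threshold of 0.05; confidence intervals are 95% ones from it. The relative fit first subtracted the mean of Cdh5 and Pecam1 of an array from all its genes. Ratios of 2 genes and correlations used exact permutation tests. Genes alike are the 5 with the highest Pearson correlation of deviations from group means. The limma step was tested on simulated data. The members and lists were chosen with earlier results of these data known. All members are named; of each list, the 2 largest called rises and falls in each tumour could be named, and some are; Abcg8 is named as 1 of the 5 genes most like Abcc1. Abcc9, Nr1i2, Nr1i3 and Nqo1 fall outside that rule and were chosen after their values were seen. The number of arrays limits the precision, and the labels give no batch. Promoter windows are from RefSeq (GRCm38.p6).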

Additional observations from a re-analysis of the deposited data

Results flagged for a closer look

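Single arrays stood apart from their group in 2 of 21 sets of 8 arrays, by a test of the gap to the nearest array against the range of the group, which flags about 1 set in 20 by chance. Abcc6 was 6.13 in Wnt replicate 1, against 6.53 in the next array and a group median of 6.69. Abcc5 was 8.94 in Wnt replicate 3, against 8.59 in the next array and a group median of 8.51.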

How the results depend on the processing

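Of 1674 recomputed values, 1645 were taken as unchanged, 7 became weaker, 19 stronger and 3 reversed. A count of calls was taken as unchanged if it moved by a limited factor, as from 7 to 5 called transporters. An uncalled difference that changed sign and stayed uncalled was taken as unchanged too. Some values left out an array outside the groups compared, which leaves the difference itself as it was. The 3 reversals came with the endothelial marker mean as a covariate: Abcg2 in Wnt against hindbrain (0.065) and against Shh (0.29), and Abcc4 in Wnt against Shh (0.050). In that fit 5 transporters were called in Wnt against hindbrain in place of 7, and 2 between the tumours in place of 5. The cause was not tested. The marker mean itself differs between the groups. Over all genes it called 4543 in place of 10040 in Wnt against hindbrain and 3648 in place of 7946 between the tumours. Other settings gave 7, 5 and 5 called transporters in Wnt against hindbrain, Shh against hindbrain and between the tumours: quantile normalization, a shift to equal medians, no dim genes, array weights, a trend in the variance, probe set means, fits to 2 groups and no Wnt replicates 1 and 8. With the replicate block the counts were also 7, 5 and 5, and 5, 3 and 7 relative to the reference, and no call changed. Same-numbered arrays gave correlations from -0.146 to 0.282. Arrays with unlike numbers were not compared and the labels do not say what a number shares, so whether numbers pair arrays was not tested. The shift to equal medians raised the part of all called genes that was higher in Wnt than in Shh from 50.3% to 62.2%. With Cdh5 alone or Pecam1 alone as the reference it was 40.7% or 66.9% in Shh against hindbrain, against 54.4% with both. Leaving out single arrays gave 7 calls in Wnt against hindbrain and 5 to 6 in each of the other comparisons. Over single arrays left out, Abcb1a minus Abcb1b ran from 0.53 to 0.82 in Shh against hindbrain and Abcb1a minus Abcg2 from -0.45 to -0.27 in Wnt against Shh. The counts of other ABC and drug-handling genes under other scalings were added after seeing the data. Each member has 1 probe set, so none could be tried on its own.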
